A study of Rattus norvegicus with 10 samples.

Results

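Knee cartilage of rats that had been injured with papain and then treated with vectors for Klotho and TGFBR2 was compared with healthy knee cartilage to describe what still differed from healthy tissue after treatment. The comparison used 4 of the 10 libraries of the series: KT replicates 1 and 2 (treated) and HC replicates 1 and 2 (healthy). HC cartilage came from untreated control animals, labelled WT. KT cartilage was taken 10 weeks after papain and L-cysteine had been injected, and AAV-DJ-Klotho together with AAV-DJ-TGFBR2 had been given at week 4. The label names the delivered agents αKlotho and sTGFBR2, a soluble receptor, and AAV-DJ is an engineered adeno-associated virus capsid. The other 6 libraries were shown beside them: 3 from cartilage 4 weeks after papain (OAC) and 3 from cartilage 10 weeks after papain that had received AAV-DJ-GFP at week 4 (SHAM). SHAM is the vector control of KT, and the test of KT against SHAM is also the test of whether the departures of KT and SHAM from HC differed. All labels give an age of 5 months, and none gives a strain, a sex, a promoter for the vectors or the number of animals behind a library. They do not tie the libraries to separate animals, so p-values measure only how far these libraries vary, and that variation may be technical.

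Klotho is a membrane and secreted protein that acts as a co-receptor for FGF23 and is known for effects on mineral balance and ageing. TGFBR2 is the ligand-binding receptor of TGF-beta, and its soluble extracellular part can bind TGF-beta away from cells. In cartilage, chondrocytes keep a matrix of type II collagen and aggrecan, and papain strips the proteoglycan from it, which serves as a chemical model of osteoarthritis. Osteoarthritic joints are known for matrix metalloproteinases, fibrous matrix and inflammatory cells of the joint lining.

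Expression is given in FPKM (sequenced fragments scaled by exon length and library size), and differences are taken on log2(FPKM + 1), a scale that makes changes of genes with low values look smaller. Fold values are ratios of the group mean FPKM. Of 11282 genes tested with limma, 2057 (18.2%) differed between KT and HC at a Benjamini-Hochberg adjusted p under 0.05, and these are called here. Of all genes tested 1611 (14.3%) were higher and 446 (3.95%) lower in KT, and 515 (4.56%) were called with a log2 difference of at least 1 in size. Against SHAM, 118 genes (1.05%) were called, 41 higher (0.363%) and 77 lower (0.683%) in KT. A lack of overlap between libraries was common: over all genes, KT lay wholly above HC in 36.6% and wholly below it in 18.1%. Against SHAM these shares were 15.0 and 17.4%. Lack of overlap was also a condition for naming some genes, and in those it is no further evidence. In the scatter of group means, called genes lay on both sides of the diagonal, with more above it. That split depended on the scaling: it was 1068 higher and 800 lower with median-of-ratios scaling, 948 and 621 after the libraries were quantile normalized, and 978 and 729 when recovered reads were fitted with voom, while the median difference of all genes moved from 0.09 to -0.01 in each. The 2 libraries of a group give few degrees of freedom, so the spread was estimated from all 10 libraries. With the 4 KT and HC libraries alone limma called 10 genes at an adjusted p under 0.05 (2318 at an unadjusted p under 0.05), with array weights 493, without KT replicate 1 972 and without KT replicate 2 1116.

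**Figure D1:**
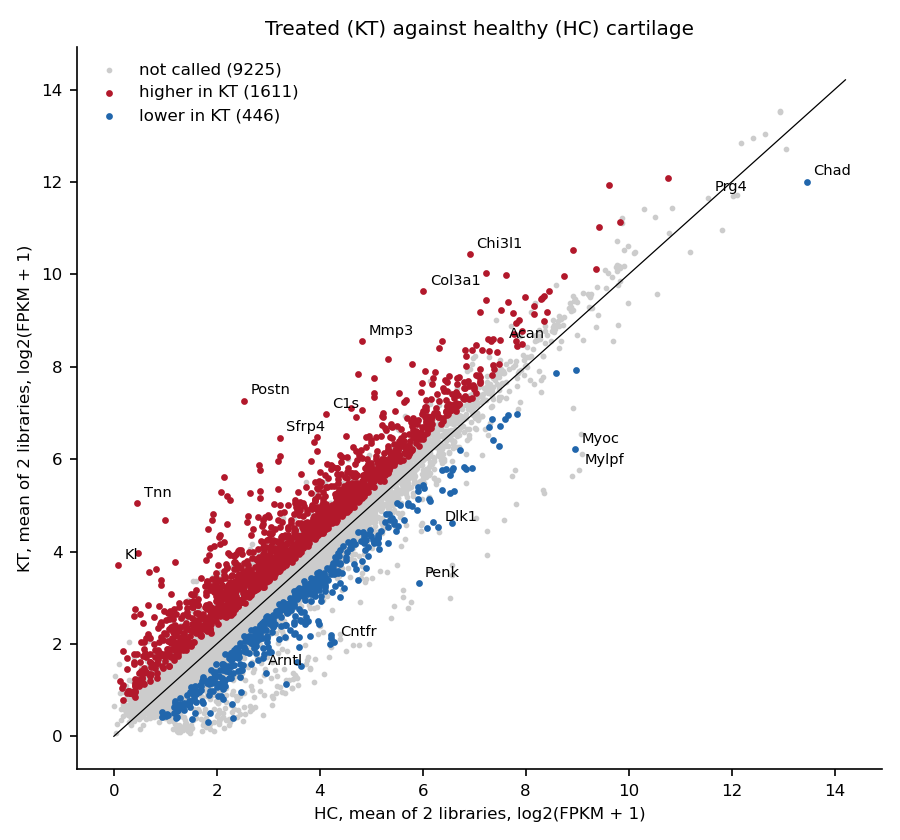
Mean log2(FPKM + 1) of the 2 HC libraries (x axis) and the 2 KT libraries (y axis) for 11282 genes. Each point is a gene, red and blue points are called higher or lower in KT, the line marks equal values, and Postn, Tnn, Col3a1 and Mmp3 lie far above it while Myoc, Penk and Cntfr lie far below it.

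The libraries held about 52400000 to 70900000 reads, of which 32100000 to 44500000 lay on listed genes (58.6 and 58.8% in HC, 62.1 to 64.4% in the others). The 8 chondrocyte markers checked (Col2a1, Acan, Comp, Sox9, Prg4, Matn3, Hapln1 and Chad) were present in every KT and HC library, the lowest being Matn3 at 3.67 FPKM in KT replicate 1. Skeletal muscle RNA set HC replicate 1 apart: 37 muscle genes, of which 34 were in the table, summed to 38355 FPKM there, against 559 in HC replicate 2, 2046 in KT replicate 1 and 397 in KT replicate 2. Mylpf, a myosin light chain of fast muscle, stood at 5393 and 49.7 FPKM in the HC libraries and 264 and 10.2 in the KT libraries, and 0 of 32 measured muscle genes were called. The correlation of log2 values across genes was 0.9597 between the HC libraries and 0.9882 between the KT libraries, and genes are not independent replicates. Run names in the file headers carry 3 tags, and HC and KT each have 1 library of the first and 1 of the third, which cannot be tied to single libraries, so no within-run value can be given. In bulk tissue, more cells of a type and more RNA per cell cannot be told apart.

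RNA assigned to the rat Klotho gene was far higher in both treated libraries than in any other. Kl (NM_031336, chromosome 12 from 942974 to 987206 in rn6) stood at 0.065 and 0.063 FPKM in HC, 0.024 to 0.073 in OAC, 0.011 to 0.039 in SHAM, and 14.2 and 10.3 in KT. These KT levels rest on 3116 and 1938 recovered reads, against 14 and 12 in HC, and the groups did not overlap. The KT mean was 191 times the HC mean (log2 difference 3.62 ± 0.15 SE, limma adjusted p = 2.9e-05) and 509 times the SHAM mean (limma adjusted p = 1.1e-05). The authors' deposited table, which holds no KT and HC pair, lists a log2 fold change of 8.91 for Kl in KT against SHAM. That table was made from these same libraries, so here and below its values are not an independent test. Tgfbr2 (NM_031132, chromosome 8 from 124312829 to 124398864) stood at 24.2 and 35.7 FPKM in HC and 42.8 and 30.7 in KT, so the libraries interleaved and no difference was called (log2 difference 0.30 ± 0.25, limma adjusted p = 0.43). The sequences carried by the vectors are not given in the sources used here, so a vector transcript that does not align to the rat gene would not be seen in these values. A vector transcript that does align cannot be told apart from RNA of the animal's own gene.

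The main cartilage matrix genes did not pass the test against healthy tissue. Acan, the large aggregating proteoglycan (NM_022190, chromosome 1 from 140762758 to 140824441), stood at 350.3 and 460.2 FPKM in HC, 308 and 370.3 in KT, 175 to 239 in OAC and 284 to 359 in SHAM. The KT and HC libraries overlapped, and the log2 difference was -0.25 ± 0.21 (limma adjusted p = 0.43, 95% interval -0.72 to 0.23). Prg4, the joint lubricant lubricin, stood at 2072 and 4344 FPKM in HC and 2778 and 3771 in KT, with the KT values inside the HC range. Its log2 difference of 0.11 (limma adjusted p = 0.86) changed sign with median-of-ratios scaling or voom and without HC replicate 1 (-0.42) or KT replicate 2 (-0.11). Comp, a matrix adaptor protein, and Sox9, the chondrocyte transcription factor, had log2 differences of 0.36 and 0.17 (limma adjusted p = 0.35 and 0.69). The sign of Comp turned with quantile normalization (-0.03) and that of Sox9 without KT replicate 2 (-0.10). A p that misses the threshold does not show that treated and healthy tissue were alike: the 95% interval of a typical gene reached 0.36 log2 units to each side. The intervals of these genes were wider, at -0.76 to 0.98 for Prg4, -0.23 to 0.95 for Comp and -0.45 to 0.78 for Sox9.

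Type II collagen lay apart without being called. Col2a1 (NM_012929, chromosome 7 from 139455242 to 139483997) stood at 727 and 1213 FPKM in HC and at 1801 and 3202 in KT, 2.58 times the healthy mean (log2 difference 1.35 ± 0.45, limma adjusted p = 0.067). Every KT library was above every HC library, as in 36.6% of all genes, and the SHAM libraries, at 1884 to 3553 FPKM, overlapped KT. Col9a1, a collagen on the surface of type II fibrils, was at 7.30 and 8.93 FPKM in HC, 12.5 and 14.7 in KT and 47.5 to 81.5 in OAC, and its difference from HC was not called (limma adjusted p = 0.32). Of 10 cartilage collagens 7 were measured, 0 were called, and the median log2 difference was 0.63 beside 0.09 for all genes. Of 16 measured chondrocyte regulators 0 were called, with a median of -0.24. Both counts stand beside 18.2% of all genes called.

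A few matrix genes were lower than in healthy cartilage. Chad, which encodes chondroadherin, a leucine-rich protein that binds chondrocytes and collagen (NM_019164, chromosome 10 from 82292375 to 82296146), was the most abundant of them at 8816 and 14454 FPKM in HC and 4322 and 3909 in KT. Both KT libraries lay below both HC libraries and within the OAC (3285 to 6131) and SHAM (3033 to 4593) ranges. It fell 2.83-fold (log2 difference -1.46 ± 0.40, limma adjusted p = 0.037), but the call was lost in 6 of the 10 fits that left out 1 library, at adjusted p = 0.053 without OAC replicate 2, 0.054 without OAC replicate 3, 0.058 without SHAM replicate 2, 0.14 without HC replicate 2, 0.096 without KT replicate 1 and 0.12 without KT replicate 2. Papss2, which makes the sulphate donor for proteoglycan sulphation, fell from 86.2 and 102 FPKM to 47.2 and 59.6, 1.76-fold (limma adjusted p = 0.019), and lost the call without HC replicate 2 (0.059) or KT replicate 1 (0.099). Thbs1, a matrix and cell-binding thrombospondin, fell from 136 and 232 to 61.7 and 95.7 FPKM (limma adjusted p = 0.034), and lost the call without HC replicate 2 (0.12), OAC replicate 2 (0.056), SHAM replicate 2 (0.054) or KT replicate 1 (0.16). These were the 3 of 22 measured members of the aggrecan and adaptor list that were called, all lower, beside a background of 3.95% lower over all genes. The count was 5 without HC replicate 1, 1 without OAC replicate 2 or SHAM replicate 2, and 0 without HC replicate 2 or KT replicate 1.

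Calls went both ways among genes of superficial chondrocytes, and only downward among growth plate genes. The superficial zone list had 13 measured members: 4 were called higher, 1 was called lower and 8 were left uncalled. On the growth plate list, of 18 measured members, 3 were called lower, 0 higher and 15 were left uncalled. Over all genes 14.3% were called higher and 3.95% lower. With array weights, the superficial zone list kept 2 higher calls and 0 lower ones, and the growth plate list kept 0. Chi3l1, a secreted chitinase-like glycoprotein of activated chondrocytes, synovial cells and macrophages (NM_001309820, chromosome 13 from 51023137 to 51030797), stood at 113 and 128 FPKM in HC and 1414 and 1367 in KT. The SHAM libraries were at 1137 to 1394 FPKM, so KT and SHAM overlapped far above HC. It rose 11.6-fold (log2 difference 3.52 ± 0.34, limma adjusted p = 0.0012) and kept its call in every omission of a library. Cd44, the hyaluronan receptor, rose from 27.3 and 29.9 to 63.8 and 47.8 FPKM (limma adjusted p = 0.0073). Ihh, the hedgehog ligand of the growth plate, fell from 8.58 and 9.65 FPKM to 4.97 and 3.73, and its target Gli1 from 13.7 and 19.0 to 8.29 and 8.60 (limma adjusted p = 0.026 and 0.023). Both lost their calls without HC replicate 2 (limma adjusted p = 0.076 for Ihh and 0.083 for Gli1), KT replicate 1 (0.052 and 0.089) or KT replicate 2 (0.12 and 0.077).

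**Figure D2:**
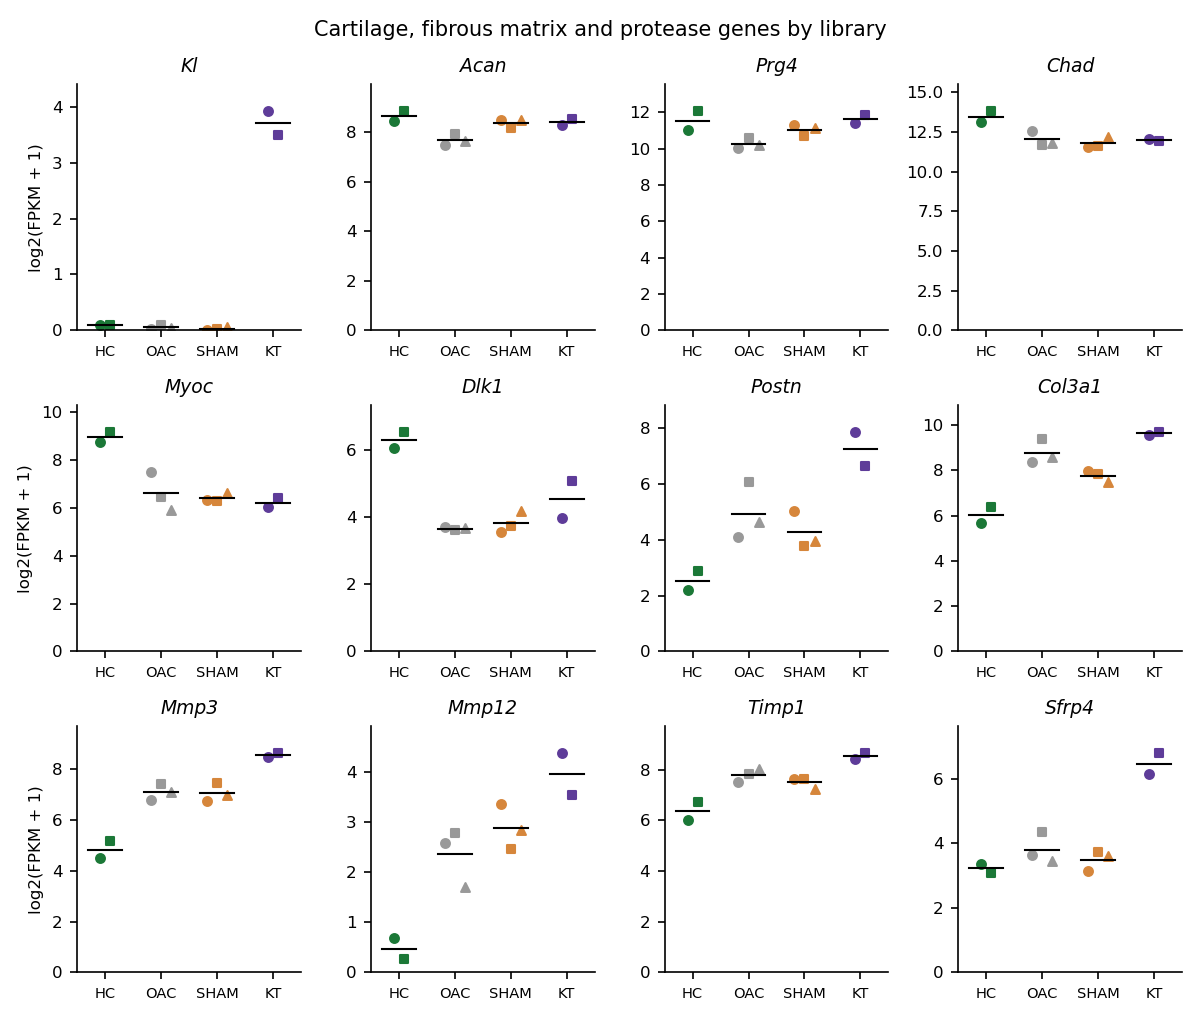
log2(FPKM + 1) of 12 genes in each library of HC, OAC, SHAM and KT, with a point per library (circle, square and triangle for replicates 1, 2 and 3) and a bar at the group mean. Kl and Sfrp4 stand apart in KT alone, Acan and Prg4 overlap between KT and HC, and Postn, Col3a1 and Mmp3 lie highest in KT.

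Some genes abundant in healthy cartilage stayed low after treatment. Myoc, which encodes myocilin (NM_030865, chromosome 13 from 80517531 to 80527928), stood at 433 and 575 FPKM in HC, 63.5 and 83.8 in KT, 59.3 to 179 in OAC and 77.6 to 97.6 in SHAM. HC stood apart from all other libraries, and KT was 6.85 times lower than HC (log2 difference -2.76 ± 0.42, limma adjusted p = 0.0050). Penk, the precursor of enkephalin peptides, fell from 61.4 and 57.7 FPKM to 8.63 and 9.36 (6.62-fold, limma adjusted p = 0.0026), with OAC at 7.21 to 16.0 and SHAM at 9.68 to 15.5. Pld5, a member of the phospholipase D family, fell from 17.0 and 18.4 to 3.04 and 4.15 FPKM (4.92-fold, limma adjusted p = 0.0042). Cntfr, the receptor of ciliary neurotrophic factor, fell from 15.0 and 22.4 FPKM to 3.05 and 3.12 (6.06-fold, limma adjusted p = 0.010). Dlk1, a Notch ligand family member of progenitor cells, stood at 66.1 and 91.8 FPKM in HC, 14.6 and 32.9 in KT and 11.3 to 11.9 in OAC. It was 3.32 times lower than in HC (limma adjusted p = 0.010), KT replicate 2 was the highest library outside HC, and the difference from SHAM was not called (log2 difference 0.70, limma adjusted p = 0.34). These 5 calls held in each omission of a library. Myoc, Dlk1 and Cntfr, and Fgfr2, Frzb, Tgfbr3 and Tef described further below, had been singled out from these same libraries for being lower after injury than in HC. Of these 7 genes 6 were called lower in KT and 1, Tef, higher, beside 3.95% lower and 14.3% higher over all genes. The falls are not independent of that choice.

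Several fibrous matrix genes were far above their level in healthy tissue. Postn, which encodes periostin, a matricellular protein of fibrous and repairing tissue (NM_001108550, chromosome 2 from 143656845 to 143688087), stood at 3.56 and 6.33 FPKM in HC and 234 and 99.7 in KT. OAC lay at 16.2 to 66.0 and SHAM at 12.9 to 31.9, so both KT libraries were above every other library. The KT mean was 33.8 times the HC mean (log2 difference 4.74 ± 0.67, limma adjusted p = 0.0038), and the difference from SHAM missed the threshold (log2 difference 3.00, limma adjusted p = 0.071). The authors' deposited table lists a log2 fold change of 3.08 for Postn against SHAM, at an adjusted p of 0.00078. Tnn, or tenascin-N (NM_001107189, chromosome 13 from 77829389 to 77896741), rose from 0.094 and 0.716 FPKM to 63.8 and 15.9 (98.5-fold, limma adjusted p = 0.0038), with KT replicate 1 at 4.00 times KT replicate 2. Col3a1, a fibrillar collagen of loose and healing tissue (NM_032085, chromosome 9 from 52023295 to 52059221), rose from 49.7 and 81.4 FPKM to 760.2 and 835, with OAC at 335 to 665 and SHAM at 178 to 252. That was 12.2 times HC (log2 difference 3.63 ± 0.34, limma adjusted p = 0.0011). Lum, the small proteoglycan lumican, rose from 123 and 182 to 1246 and 881 FPKM (6.96-fold, limma adjusted p = 0.0011). Col5a3, a type V collagen chain, rose from 1.84 and 3.51 to 10.9 and 18.6 FPKM (5.51-fold, limma adjusted p = 0.0066).

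Not all fibrous genes followed. Col1a1, the main collagen of bone and scar, stood at 114 and 387 FPKM in HC and 782 and 282 in KT, and the overlap left it uncalled (limma adjusted p = 0.33). Of 27 fibrous collagen and crosslinking genes 25 were measured, 8 rose, 0 fell and 17 did not pass, at a median log2 difference of 0.55, beside 14.3% higher over all genes. The count was 3 without HC replicate 1, KT replicate 1 or KT replicate 2, 4 without SHAM replicate 2 and 5 without OAC replicate 2, and it was 4 with median-of-ratios scaling, quantile normalization or voom. Postn, Tnn, Col3a1, Lum and Col5a3 kept their calls in each omission. Dcn, the proteoglycan decorin, rose from 1339 and 2286 to 3650 and 5187 FPKM (limma adjusted p = 0.041) but lost the call without any of 6 libraries, at adjusted p = 0.15 without HC replicate 1, 0.065 without OAC replicate 2, 0.061 without OAC replicate 3, 0.057 without SHAM replicate 1, 0.071 without KT replicate 1 and 0.17 without KT replicate 2. Under quantile normalization, median-of-ratios scaling and voom its limma adjusted p was 0.053, 0.065 and 0.061.

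Some fibroblast and synovial genes were called higher, others were not. Crabp2, a retinoic acid binding protein, rose from 3.86 and 2.97 FPKM to 41.2 and 55.7 (14.2-fold, limma adjusted p = 0.0014). Lgals1, the lectin galectin-1, rose from 183 and 103 to 588 and 577 FPKM (4.06-fold, limma adjusted p = 0.0035). Vcam1, an adhesion molecule of lining fibroblasts and vessels, rose from 7.88 and 8.93 to 24.4 and 39.5 FPKM (limma adjusted p = 0.0052). Thy1, a fibroblast surface marker, rose from 11.9 and 17.9 to 52.0 and 30.5 FPKM (limma adjusted p = 0.013), a call lost without KT replicate 1 (0.066). Of 16 measured genes of synovial lining and joint fibroblasts 7 rose, 0 fell and 9 did not pass, beside 14.3% higher over all genes, and the count was 4 without HC replicate 1, 2 without KT replicate 1 and 3 without KT replicate 2. Their summed level was 2343 and 4645 FPKM in HC and 3304 and 4311 in KT, and most of it was Prg4, which chondrocytes of the surface also make. Cpxm2, a carboxypeptidase-like matrix protein on the tendon list, rose from 5.11 and 3.99 to 15.9 and 14.9 FPKM (limma adjusted p = 0.0017). Of 10 measured tendon and ligament genes 1 rose, 1 fell (Myoc, described above) and 8 did not pass, beside 14.3% higher and 3.95% lower over all genes.

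Against SHAM, some of these matrix genes were higher in KT. Col3a1, Col5a3 and Lum differed by 1.87, 1.85 and 1.31 log2 units (limma adjusted p = 0.033, 0.039 and 0.036), and Lgals1 by 1.58 (0.030). KT lay above SHAM without overlap in each, as it did in 15.0% of all genes. These calls were not stable. Col3a1 lost its call without OAC replicate 3 (limma adjusted p = 0.061), any SHAM library (0.084, 0.11 and 0.13 for replicates 1, 2 and 3), KT replicate 1 (0.077) or KT replicate 2 (0.26), and Lum without OAC replicate 2 (0.056), OAC replicate 3 (0.070), any SHAM library (0.11, 0.12 and 0.13), KT replicate 1 (0.097) or KT replicate 2 (0.075). Col5a3 lost it without OAC replicate 1 (limma adjusted p = 0.053), OAC replicate 3 (0.061), any SHAM library (0.12, 0.11 and 0.13) or KT replicate 2 (0.34), and Lgals1 without any SHAM library (0.095, 0.11 and 0.13), KT replicate 1 (0.081) or KT replicate 2 (0.21). Col3a1 also missed the threshold with quantile normalization (limma adjusted p = 0.053) and voom (0.058). The authors' deposited table lists these genes as higher than SHAM too, but from the same libraries, so it does not bear on how the calls depend on single libraries. Its adjusted p is 3.7e-18 for Col3a1, 1.7e-11 for Col5a3, 2.8e-16 for Lum and 6.7e-35 for Lgals1.

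Matrix metalloproteinases are zinc proteases that degrade collagen and proteoglycan, and some of them were above healthy levels after treatment. The list has 17 members, 16 of them with values and 14 with a mean above the minimum for testing. Of the 14, 7 rose, 0 fell and 7 did not pass, beside 14.3% higher and 3.95% lower over all genes, and the median log2 difference was 1.56. The promoter sequences of 4 of them are shown because these genes lie in a cluster on chromosome 8 and share a motif near the start site. They are the 250 bases before the start in RefSeq's GRCr8 assembly, 5′ to 3′ on the plus strand, and capitals mark an AP-1 type motif, TGANTCA on either strand. The windows are chr8:12925031-12925280 for Mmp3, chr8:12974457-12974706 for Mmp10, chr8:12866402-12866651 for Mmp12 and chr8:12782579-12782828 for Mmp13.
Mmp3: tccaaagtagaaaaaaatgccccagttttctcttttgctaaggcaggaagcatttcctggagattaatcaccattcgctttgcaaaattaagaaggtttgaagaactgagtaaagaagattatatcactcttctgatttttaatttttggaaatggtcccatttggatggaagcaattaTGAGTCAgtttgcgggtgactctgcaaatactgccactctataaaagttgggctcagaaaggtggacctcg
Mmp10: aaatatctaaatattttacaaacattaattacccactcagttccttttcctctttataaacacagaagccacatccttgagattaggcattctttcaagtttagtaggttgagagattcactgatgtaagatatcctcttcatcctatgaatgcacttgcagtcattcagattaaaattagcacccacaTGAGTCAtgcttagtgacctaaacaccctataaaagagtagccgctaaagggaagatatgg
Mmp12: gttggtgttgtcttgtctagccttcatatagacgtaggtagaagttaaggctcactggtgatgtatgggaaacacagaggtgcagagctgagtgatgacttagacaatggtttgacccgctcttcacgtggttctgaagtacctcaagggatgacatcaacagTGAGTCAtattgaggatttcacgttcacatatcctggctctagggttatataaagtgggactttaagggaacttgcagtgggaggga
Mmp13: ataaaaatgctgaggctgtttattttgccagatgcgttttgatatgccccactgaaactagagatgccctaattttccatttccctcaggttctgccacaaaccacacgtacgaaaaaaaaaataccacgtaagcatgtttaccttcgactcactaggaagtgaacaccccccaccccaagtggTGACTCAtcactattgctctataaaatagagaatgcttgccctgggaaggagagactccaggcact
The motif starts 71, 61, 87 and 66 bases before the start site in these 4 promoters, in that order. It was found in 4 of the 9 metalloproteinase promoters that could be matched (44.4%), beside 7.33% of 27457 promoters of 300 bases, 250 before and 50 after the start. The AP-1 motif was picked after the data were seen, and a match of letters describes the sequence and is neither a binding site nor a cause.

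Mmp3, the stromelysin that degrades proteoglycan and activates collagenases (NM_133523, chromosome 8 from 5676608 to 5698579 in rn6), stood at 21.4 and 34.8 FPKM in HC and 354 and 394 in KT. OAC lay at 109 to 169 and SHAM at 105 to 175, so KT was above every other library. The KT mean was 13.3 times the HC mean (log2 difference 3.72 ± 0.30, limma adjusted p = 0.00085). Mmp10, the second stromelysin, rose from 2.66 and 3.96 FPKM to 38.6 and 37.8 (11.5-fold, limma adjusted p = 0.0010). Mmp12, the macrophage elastase (NM_053963, chromosome 8 from 5606592 to 5616494), rose from 0.606 and 0.206 to 19.9 and 10.6 FPKM (37.5-fold, limma adjusted p = 0.0024). Mmp19 rose from 1.28 and 1.27 to 12.8 and 12.4 FPKM (9.89-fold, limma adjusted p = 0.00045), and Mmp2, a gelatinase of fibroblasts, from 40.1 and 74.4 to 293 and 242 FPKM (4.67-fold, limma adjusted p = 0.0023). Each of these 5 calls held in every omission of a library. Mmp13, a collagenase of type II collagen whose promoter also holds the motif, stood at 71.6 and 67.9 FPKM in HC and 315 and 132 in KT. The KT libraries were above HC but 2.38-fold apart, and the difference was not called (log2 difference 1.54 ± 0.66, limma adjusted p = 0.14). OAC and SHAM reached 934 and 413 FPKM.

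Against SHAM, 4 of the 14 metalloproteinases were higher in KT, beside 0.363% over all genes: Mmp3, Mmp10, Mmp19 and Mmp2, by 1.5, 1.42, 0.89 and 1.54 log2 units (limma adjusted p = 0.046, 0.039, 0.039 and 0.028). The count fell to 0 without SHAM replicate 1, SHAM replicate 3 or KT replicate 1, to 1 without OAC replicate 2 or KT replicate 2, and to 2 when SHAM replicate 2, OAC replicate 1 or OAC replicate 3 was left out. Without KT replicate 2 the limma adjusted p was 0.34 for Mmp3, 0.26 for Mmp10, 0.24 for Mmp19 and 0.13 for Mmp2. The aggrecanases gave no call against HC: Adamts4 stood at 0.255 and 0.347 FPKM in HC and 1.16 and 0.335 in KT (limma adjusted p = 0.29), and Adamts5 at 2.38 and 3.26 in HC and 3.10 and 4.80 in KT (limma adjusted p = 0.26). Adam9, a membrane protease, rose from 11.6 and 11.9 to 21.8 and 21.1 FPKM (limma adjusted p = 0.0092), among 3 of 15 measured ADAM and ADAMTS genes that rose, beside 14.3% higher over all genes, a count of 1 without HC replicate 2 or KT replicate 1.

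A protease inhibitor was higher too. Timp1, the inhibitor of metalloproteinases, stood at 63.5 and 106 FPKM in HC and 343 and 406 in KT, with OAC at 181 to 259 and SHAM at 150.2 to 199.8. Both KT libraries lay above all others, and the rise over HC was 4.42-fold (log2 difference 2.17 ± 0.27, limma adjusted p = 0.0024). Of 14 measured protease inhibitors 5 rose, 2 fell and 7 did not pass, beside 14.3% higher and 3.95% lower over all genes. The higher count was 2 with quantile normalization and 3 with median-of-ratios scaling or voom.

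Bone and osteoclast genes set the KT libraries apart from each other. Acp5, the phosphatase of osteoclasts, stood at 75.8 and 205 FPKM in HC and 715 and 117 in KT, and Ctsk, the bone-resorbing cathepsin, at 98.6 and 294 in HC and 828 and 319 in KT. KT replicate 1 was 6.12 and 2.60 times KT replicate 2, and no difference from HC was called (limma adjusted p = 0.42 and 0.17). Without KT replicate 1 the log2 difference of Acp5 turned from 1.21 to -0.09. The 16 osteoclast genes summed to 2069 FPKM in KT replicate 1 and 753 in KT replicate 2, against 406 and 698 in HC. Of them 4 rose, 0 fell and 12 did not pass, beside 14.3% higher over all genes, and the count was 0 without KT replicate 1, 1 without HC replicate 1, HC replicate 2 or SHAM replicate 2, and 2 without OAC replicate 2 or SHAM replicate 1, with 1 under quantile normalization or median-of-ratios scaling and 0 under voom. Sost, the Wnt inhibitor of osteocytes, fell from 80.7 and 109 FPKM to 35.2 and 15.5 (3.74-fold, limma adjusted p = 0.013), and lost the call without KT replicate 2 (0.057). Tnfrsf11b, the decoy receptor osteoprotegerin, fell from 328 and 453 to 211 and 255 FPKM (limma adjusted p = 0.032), a call lost without HC replicate 2 (0.10), OAC replicate 2 (0.056), KT replicate 1 (0.14) or KT replicate 2 (0.057). Slc20a1, a phosphate transporter, rose from 46.2 and 81.3 to 152 and 200.3 FPKM (limma adjusted p = 0.0091), and lost the call without KT replicate 2 (0.051).

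Wnt pathway genes changed in both directions. Sfrp4, a secreted Wnt antagonist (NM_053544, chromosome 17 from 47383983 to 47394065), stood at 9.30 and 7.43 FPKM in HC, 9.86 to 19.2 in OAC, 7.85 to 12.3 in SHAM and 69.3 and 110.3 in KT. SHAM overlapped both HC and OAC, and both KT libraries lay above all of these. KT was 10.7 times HC (log2 difference 3.25 ± 0.33, limma adjusted p = 0.0014) and differed from SHAM by 2.97 (limma adjusted p = 0.0025), and both calls held in every omission of a library. Wisp2, a matricellular protein of fibroblasts, rose from 14.0 and 13.6 to 74.1 and 91.1 FPKM (5.99-fold, limma adjusted p = 0.0020), with SHAM at 33.2 to 36.8. Among the genes that fell, Notum, an enzyme that inactivates Wnt ligands, went from 7.52 and 17.2 FPKM to 2.42 and 1.40 (6.48-fold, limma adjusted p = 0.013), and lost the call without KT replicate 2 (0.067). Frzb, a Wnt antagonist of articular chondrocytes, fell from 168 and 195 to 91.0 and 119 FPKM (1.73-fold, limma adjusted p = 0.029), and lost the call without HC replicate 2 (0.084) or KT replicate 1 (0.14). Frzb lay at 58.4 to 84.1 in OAC and 135 to 166 in SHAM, so KT was between these groups. Because Frzb was singled out from these libraries for being lower after injury, its fall is not independent of that choice. Of 21 measured Wnt genes 3 rose, 7 fell and 11 did not pass, beside 14.3% higher and 3.95% lower over all genes, and the lower count was 4 without HC replicate 2 and 3 without KT replicate 2.

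Genes of the TGF-beta pathway were called in both directions. Smad3, which carries the TGF-beta signal to the nucleus, fell from 32.1 and 36.2 FPKM to 19.2 and 18.3 (1.82-fold, log2 difference -0.83 ± 0.12, limma adjusted p = 0.0039), with SHAM at 16.8 to 19.6. Inhba, the activin A subunit, rose from 2.54 and 3.23 to 12.3 and 21.7 FPKM (5.89-fold, limma adjusted p = 0.0039), with SHAM at 9.98 to 16.0. Both genes overlapped between KT and SHAM. Tgfbr3, the co-receptor betaglycan, fell from 55.5 and 85.9 to 29.8 and 38.9 FPKM (limma adjusted p = 0.026), a call lost without HC replicate 2 (0.086) or KT replicate 1 (0.12). Because Tgfbr3 was singled out from these libraries for being lower after injury, its fall is not independent of that choice. Of 24 measured TGF-beta ligands, receptors and Smads 2 rose and 2 fell, Tgfbr3 among the latter, beside 14.3% higher and 3.95% lower over all genes. Each count was 1 without some library: the higher one without HC replicate 1 or KT replicate 1, the lower one without HC replicate 2. The lower count was 4 with quantile normalization, median-of-ratios scaling or voom. Among the TGF-beta response and myofibroblast genes, 20 were measured and 13 were not called, 6 rose and Thbs1 fell, beside 14.3% higher and 3.95% lower over all genes. Among those that rose were Postn and Il11, given with their values elsewhere, and Nox4 and Junb. Nox4, an oxidase of myofibroblasts, went from 0.182 and 0.570 to 2.02 and 2.92 FPKM, with SHAM at 0.292 to 0.520 (limma adjusted p = 0.010 against HC, lost without KT replicate 2 at 0.055). Its difference from SHAM (limma adjusted p = 0.045) was lost without OAC replicate 3 (0.085), any SHAM library (0.13, 0.12 and 0.13), KT replicate 1 (0.063) or KT replicate 2 (0.35), and with voom (0.10). Junb, an AP-1 subunit, rose from 19.3 and 25.2 to 38.8 and 68.8 FPKM (limma adjusted p = 0.012).

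BMP genes were lower where they were called, and IGF and FGF genes went both ways. Bmp7 fell from 3.20 and 3.18 FPKM to 1.24 and 1.04, and Nog, the BMP antagonist noggin, from 3.34 and 3.20 to 1.02 and 1.29 (2.80-fold and 2.83-fold, limma adjusted p = 0.0062 and 0.0052). Of 24 measured BMP and GDF genes 0 rose, 4 fell and 20 did not pass, beside 3.95% lower over all genes, and the count was 2 without HC replicate 2 or KT replicate 2. Igf2, a growth factor, fell from 15.0 and 14.4 to 3.70 and 5.87 FPKM (3.08-fold, limma adjusted p = 0.018), and lost the call without KT replicate 1 (0.092). Igfbp4, which binds IGFs, rose from 13.8 and 18.8 to 38.6 and 63.8 FPKM (3.15-fold, limma adjusted p = 0.0073). Fgfr2, an FGF receptor, fell from 70.6 and 117 to 41.2 and 33.8 FPKM (2.51-fold, limma adjusted p = 0.011), and lost the call without KT replicate 2 (0.059). Apart from Kl, 1 of the other 18 measured genes of the Klotho and FGF axis rose and 2 fell, beside 14.3% higher and 3.95% lower over all genes. Fgfr2 is among the 2 that fell, and its direction is not independent, because it was singled out for being lower after injury. None of the 18 rose without HC replicate 2 or KT replicate 2 or with voom, and the lower count was 0 without KT replicate 2 and 4 with quantile normalization or median-of-ratios scaling.

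**Figure D3:**
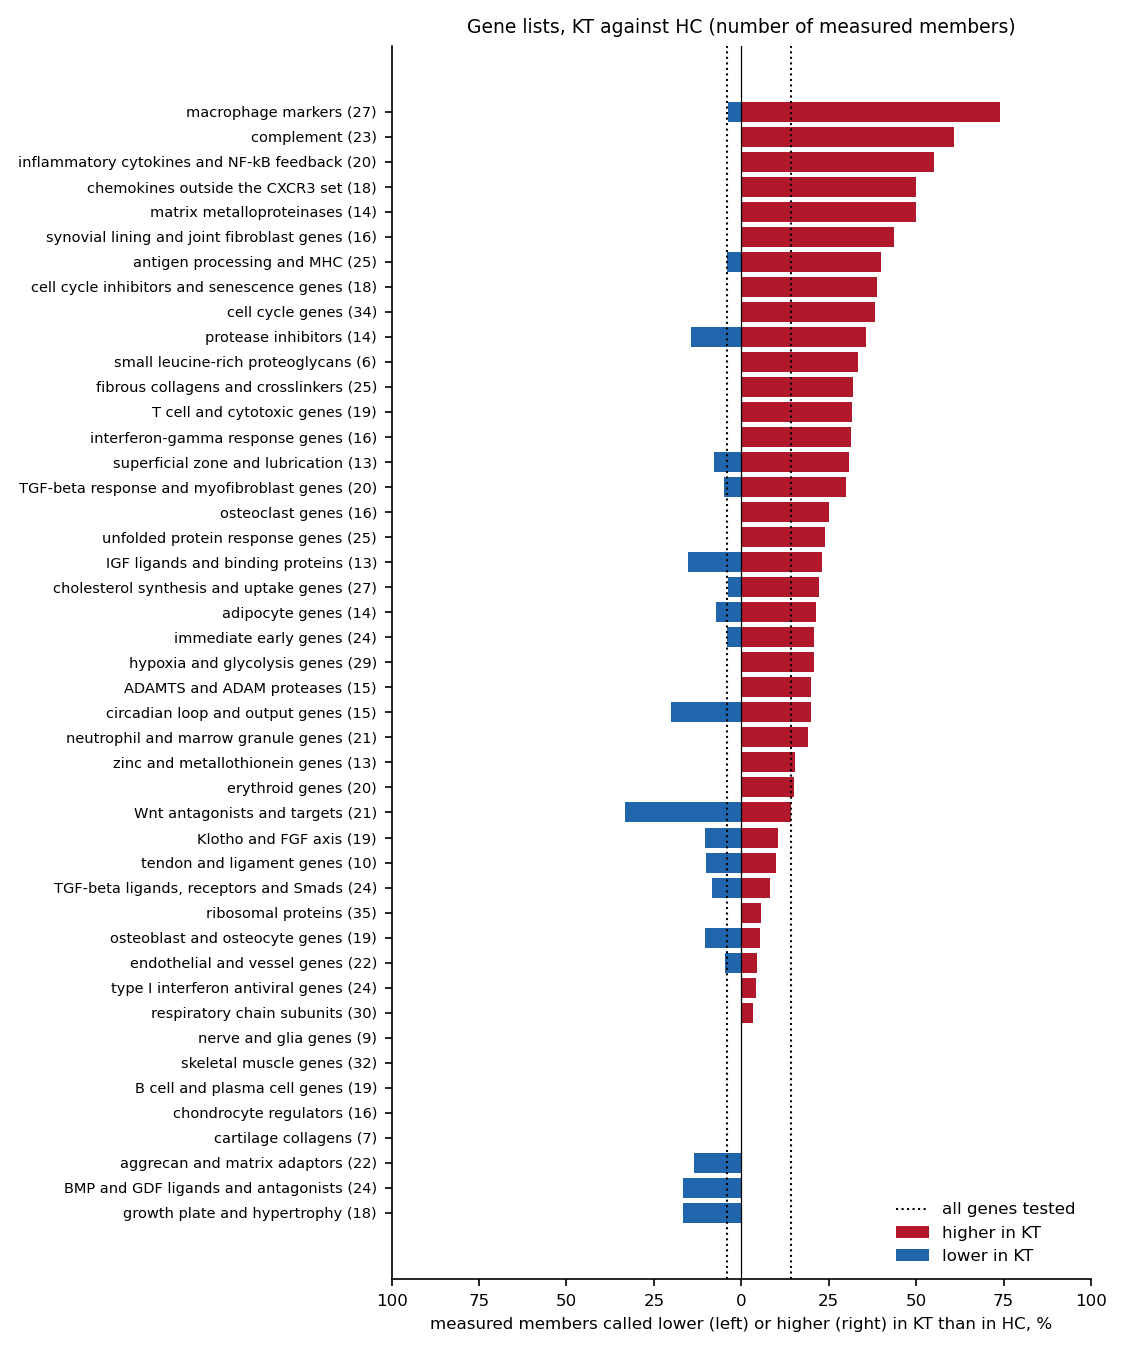
Share of the measured members of each gene list that was called higher (red, right) or lower (blue, left) in KT than in HC, in percent, with the number of measured members in brackets. Dotted lines mark the shares over all 11282 genes (14.3% higher, 3.95% lower), macrophage markers and complement lie farthest to the right, and muscle, cartilage collagen and chondrocyte regulator lists have no called member.

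Macrophage genes had most of their measured members above healthy tissue. Of 30 markers 27 were measured. Among them 20 rose, 1 fell and 6 did not pass, beside 14.3% higher and 3.95% lower over all genes, with a median log2 difference of 1.51, and leaving out any single library gave 17 to 21. Trem2, a lipid receptor of macrophages (NM_001106884, chromosome 9 from 14611561 to 14618013), stood at 6.28 and 5.83 FPKM in HC, 9.07 to 12.5 in OAC, 29.6 to 51.0 in SHAM and 41.0 and 79.6 in KT. KT and SHAM overlapped above OAC and HC, and KT was 9.96 times HC (log2 difference 3.04 ± 0.33, limma adjusted p = 0.0018). Msr1, the macrophage scavenger receptor, rose from 3.54 and 2.21 to 22.6 and 32.6 FPKM, and Folr2, a folate receptor of tissue macrophages, from 6.37 and 4.34 to 27.8 and 50.8 FPKM (9.62-fold and 7.34-fold, limma adjusted p = 0.0023 and 0.0038). Apoe, a lipid carrier, rose from 219 and 175 to 765 and 1344 FPKM (5.36-fold, limma adjusted p = 0.0033). In Trem2, Msr1, Folr2 and Apoe, KT replicate 2 was the higher of the KT libraries. The whole list summed to 1597 and 1341 FPKM in HC, 5702 and 7340 in KT, 3655 to 4823 in OAC and 5967 to 9523 in SHAM.

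Few macrophage markers separated KT from SHAM. The median difference over the list was -0.18, and 2 of 27 were called higher in KT, Apoe and Lyve1, beside 0.363% over all genes. Lyve1, a hyaluronan receptor of resident macrophages and lymph vessels named after its value was seen, stood at 7.57 and 9.13 FPKM in HC, 1.63 to 3.32 in SHAM and 10.7 and 15.8 in KT (log2 difference from SHAM 1.99, limma adjusted p = 0.0038, and 0.13 against HC). The call of Apoe (log2 difference 1.57, limma adjusted p = 0.048) was lost in 9 of 10 omissions, at adjusted p from 0.052 to 0.36, and kept without KT replicate 1, and it also missed the threshold with median-of-ratios scaling (0.059) and voom (0.070). Outside the list, Gpr34, a lysophospholipid receptor of macrophages and microglia (NM_001024925, chromosome X from 10023489 to 10031167), stood at 2.48 and 2.85 FPKM in HC, 5.61 to 7.05 in OAC, 3.53 to 5.05 in SHAM and 12.4 and 20.4 in KT. Both KT libraries were above all others, with a difference of 2.21 from HC (limma adjusted p = 0.0014) and 1.67 from SHAM (limma adjusted p = 0.0063), and both calls held in every omission. Fcrl2, of the Fc receptor-like family, rose from 0.163 and 2.42 to 22.5 and 27.1 FPKM (19.2-fold, limma adjusted p = 0.0024), with SHAM at 4.07 to 5.36. Its difference from SHAM, 2.21, had a limma adjusted p of 0.050 and was not called, while the authors' deposited table lists an adjusted p of 6.7e-27.

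Of 23 measured complement genes, 14 were called higher than in HC. C1s, a protease that starts the classical pathway (NM_138900, chromosome 4 from 157143592 to 157155596), stood at 14.5 and 18.3 FPKM in HC, 53.4 to 67.1 in OAC, 188 to 204 in SHAM and 124 and 127 in KT. The groups did not overlap, with KT between OAC and SHAM. KT was 7.64 times HC (log2 difference 2.87 ± 0.14, limma adjusted p = 7.7e-05), and the difference from SHAM, -0.63, missed the threshold (limma adjusted p = 0.076). For C1s against SHAM the authors' deposited adjusted p is 0.00023. C1qb, a C1q chain made by macrophages, rose from 27.2 and 19.8 to 108 and 175 FPKM, and C4a from 0.720 and 1.04 to 9.42 and 9.49 FPKM (6.04-fold and 10.7-fold, limma adjusted p = 0.0023 and 0.0038). Vsig4, a complement receptor of resident macrophages, stood at 13.7 and 4.98 FPKM in HC, 4.23 to 20.7 in SHAM and 39.6 and 111 in KT (limma adjusted p = 0.027), a call lost without HC replicate 2 (0.098) or KT replicate 2 (0.14). None of the 23 fell and 9 were not called, beside 14.3% higher and 3.95% lower over all genes, with a median of 1.33 for the list, and leaving out any single library gave 10 to 15.

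About as many chemokine and inflammatory genes were called higher as were not called. Ccl2 and Ccl7, which draw monocytes, stood at 2.45 and 3.10 FPKM and 0.734 and 0.800 FPKM in HC, and at 25.9 and 23.5 and 7.86 and 16.2 FPKM in KT. The rises were 8.90-fold and 15.7-fold (limma adjusted p = 0.0064 and 0.0041), and KT overlapped SHAM in both. Ccl17, a chemokine for T helper cells, rose from 0.118 and 0.791 to 4.30 and 6.49 FPKM, on 2 and 12 reads in HC (limma adjusted p = 0.0050). Cxcl13, the B cell chemokine, stood at 26.1 and 25.4 FPKM in HC, 3.11 to 20.9 in OAC, 154 to 264 in SHAM and 134 and 386 in KT (10.1-fold, limma adjusted p = 0.023). It was below HC in every OAC library and above it in every SHAM and KT library, and lost its call against HC without HC replicate 1 (0.055), HC replicate 2 (0.056) or KT replicate 2 (0.12). Of 18 measured chemokine genes 9 rose, 0 fell and 9 did not pass, beside 14.3% higher over all genes, and leaving out any single library gave 6 to 10.

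Il18, an inflammasome cytokine (NM_019165, chromosome 8 from 55009666 to 55016286), stood at 3.62 and 3.97 FPKM in HC, 9.89 to 11.1 in OAC, 36.3 to 54.0 in SHAM and 19.8 and 55.9 in KT. KT and SHAM overlapped, and KT was 9.98 times HC (limma adjusted p = 0.0032). Tlr2, a receptor for bacterial and matrix fragments, rose from 3.71 and 2.58 to 14.9 and 24.1 FPKM, and Lcn2, an acute phase protein, from 33.9 and 30.3 to 259.8 and 181 FPKM (6.18-fold and 6.87-fold, limma adjusted p = 0.0025 and 0.0030). Tnfaip6, a hyaluronan-binding protein induced by inflammation, rose from 6.87 and 9.57 to 42.6 and 88.0 FPKM (limma adjusted p = 0.020), a call lost without HC replicate 1 (0.060) or KT replicate 2 (0.10). Il11, a cytokine of the IL-6 family, rose from 0.608 and 0.660 to 3.75 and 2.96 FPKM (limma adjusted p = 0.015), lost without KT replicate 1 (0.077). Il1b rose from 1.47 and 0.887 to 4.20 and 4.04 FPKM (limma adjusted p = 0.011), lost without KT replicate 1 (0.052). Il6 had too low a mean to be tested, with 17 and 37 reads in HC and 24 and 14 in KT. Among 20 measured inflammatory genes, 11 rose, none fell and 9 were not called, beside 14.3% higher over all genes, and the count was 6 without KT replicate 1.

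Most measured interferon-gamma response genes were lower in KT than in SHAM, and some of them were above HC. Interferon gamma is known to induce the chemokines Cxcl9 and Cxcl10, guanylate-binding proteins and the immunoproteasome. Promoters of Cxcl10 and Gbp2 are shown because both genes were far lower in KT than in SHAM and both hold an ISRE type motif (GAAA, any 2 bases, GAAA, on either strand), in capitals. They are the 250 bases before the start in GRCr8, on the plus strand, at chr14:15988816-15989065 and chr2:234005477-234005726.
Cxcl10: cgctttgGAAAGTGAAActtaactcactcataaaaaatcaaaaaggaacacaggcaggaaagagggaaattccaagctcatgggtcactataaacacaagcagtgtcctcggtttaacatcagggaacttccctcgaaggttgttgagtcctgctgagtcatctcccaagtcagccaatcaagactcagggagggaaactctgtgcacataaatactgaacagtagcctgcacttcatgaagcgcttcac
Gbp2: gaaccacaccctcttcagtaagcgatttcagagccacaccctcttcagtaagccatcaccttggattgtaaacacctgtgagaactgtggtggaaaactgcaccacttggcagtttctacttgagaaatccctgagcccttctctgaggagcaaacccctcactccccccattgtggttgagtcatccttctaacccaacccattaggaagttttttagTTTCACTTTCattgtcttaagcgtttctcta
The motif starts 243 bases before the start site in Cxcl10, and 31 bases before it, on the other strand, in Gbp2. It was found in 7 of the 14 matched promoters of interferon-gamma response genes, beside 3.77% of all promoters. A GAS type motif, TTCNNNGAA on either strand, was in 7 of 14, beside 8.68%. Type I interferon antiviral genes held the ISRE type more often (12 of 17, 70.6%), yet 3 of 24 measured were called lower than SHAM, beside 0.683% over all genes. That count was 0 without OAC replicate 3. In antigen processing genes the ISRE type was in 9 of 24 (37.5%). The GAS type was in 4 of 17 and 2 of 24. The 2 spellings can overlap in a sequence, so their matches are not independent, and a match is a description only.

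Ubd, which encodes the ubiquitin-like protein FAT10 (NM_053299, chromosome 20 from 1876176 to 1878126), stood at 0.441 and 0 FPKM in HC, 0.127 to 0.927 in OAC, 42.8 to 66.2 in SHAM and 0.383 and 1.42 in KT. KT overlapped HC and OAC, with no call against HC (limma adjusted p = 0.26), and lay 64.2 times below SHAM (log2 difference -4.98, limma adjusted p = 0.00034). Cxcl10 (NM_139089, chromosome 14 from 17210733 to 17212930) stood at 0.739 and 0.292 FPKM in HC, 0.726 to 1.06 in OAC, 19.4 to 32.7 in SHAM and 2.05 and 3.48 in KT. It was 5.36 times HC (limma adjusted p = 0.014, lost without KT replicate 2 at 0.074 and with voom at 0.057) and 9.78 times below SHAM (log2 difference -2.89, limma adjusted p = 0.0012). Cxcl9 was at 0.716 and 0.468 FPKM in HC, 37.9 to 101 in SHAM and 1.80 and 6.42 in KT. It was not called against HC (limma adjusted p = 0.071), but was without SHAM replicate 2 (0.038) or KT replicate 1 (0.039), and it was called lower than SHAM (log2 difference -3.60, limma adjusted p = 0.0092, or 0.057 with voom). Gbp2 stood at 5.75 and 6.36 FPKM in HC, 84.0 to 153 in SHAM and 11.8 and 14.7 in KT, a difference of -3.05 from SHAM (limma adjusted p = 0.00086). Its rise over HC (2.19-fold, limma adjusted p = 0.033) was lost without HC replicate 1 (0.088), HC replicate 2 (0.061), OAC replicate 3 (0.052), SHAM replicate 2 (0.052), KT replicate 1 (0.074) or KT replicate 2 (0.14), and with median-of-ratios scaling (0.059).

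Tap1, the peptide transporter of class I presentation, was named after its values were seen. It stood at 6.10 and 5.66 FPKM in HC and 7.92 and 6.75 in KT, against 27.5 to 37.7 in SHAM. It was not called against HC (limma adjusted p = 0.37) and was called below SHAM (log2 difference -1.96, limma adjusted p = 0.0019). Of 24 interferon-gamma response genes 16 were measured: 12 were lower than SHAM and 0 higher, beside 0.683% lower over all genes, with a median of -2.04. Leaving out any single library gave 10 or 11. Against HC 5 rose and 0 fell, with a median of 0.54, and the count was 1 without KT replicate 2, 2 without HC replicate 1 or KT replicate 1, and 3 without HC replicate 2 or OAC replicate 3, with 2 under quantile normalization or median-of-ratios scaling and 1 under voom. Over all genes tested, 14.3% were higher and 3.95% lower than in HC, with a median log2 difference of 0.09. The interferon-gamma list summed to 80.9 and 88.0 FPKM in HC, 133 and 132 in KT, 128 to 140 in OAC and 469 to 637 in SHAM. SHAM was the only group whose libraries summed to over 140 FPKM. The calls of Ubd, Cxcl9, Cxcl10, Gbp2 and Tap1 against SHAM held in every omission of a library. The GFP and the Klotho and TGFBR2 vectors also differ in what they carry, so the effect of the delivered genes and of GFP cannot be told apart here.

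Among antigen presentation genes, some were above HC and some below SHAM. Psmb8, an immunoproteasome subunit, stood at 6.76 and 7.46 FPKM in HC, 17.1 to 18.2 in OAC, 49.8 to 53.4 in SHAM and 19.0 and 21.0 in KT. All 4 groups were apart, and KT was 2.81 times HC (log2 difference 1.37 ± 0.10, limma adjusted p = 0.00054) and below SHAM by 1.32 log2 units (limma adjusted p = 0.00034). RT1-Da, a class II MHC chain, rose from 103 and 123 to 223 and 477 FPKM (limma adjusted p = 0.026), and lost the call without HC replicate 1 (0.074) or KT replicate 2 (0.12), and with quantile normalization (0.064). MHC genes have near-identical copies, so reads could be split among them. Ctss, the cathepsin that trims class II peptides, rose from 35.9 and 28.8 to 129 and 228 FPKM (5.52-fold, limma adjusted p = 0.0038), and overlapped SHAM. Of 25 measured antigen genes 10 rose and 1 fell against HC, beside 14.3% higher and 3.95% lower over all genes, with a higher count of 4 without HC replicate 1, 3 without KT replicate 2 and 4 with quantile normalization. Against SHAM 14 were lower and 0 higher, beside 0.683% lower over all genes, with 9 without OAC replicate 3 or SHAM replicate 1, 8 without KT replicate 1 and 7 without KT replicate 2. Type I interferon genes gave 1 call against HC in 24, Rsad2, an antiviral enzyme, which rose from 11.8 and 9.14 to 21.3 and 17.6 FPKM (limma adjusted p = 0.031) and lost the call without HC replicate 2 (0.10), OAC replicate 2 (0.051), KT replicate 1 (0.13) or KT replicate 2 (0.062).

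**Figure D4:**
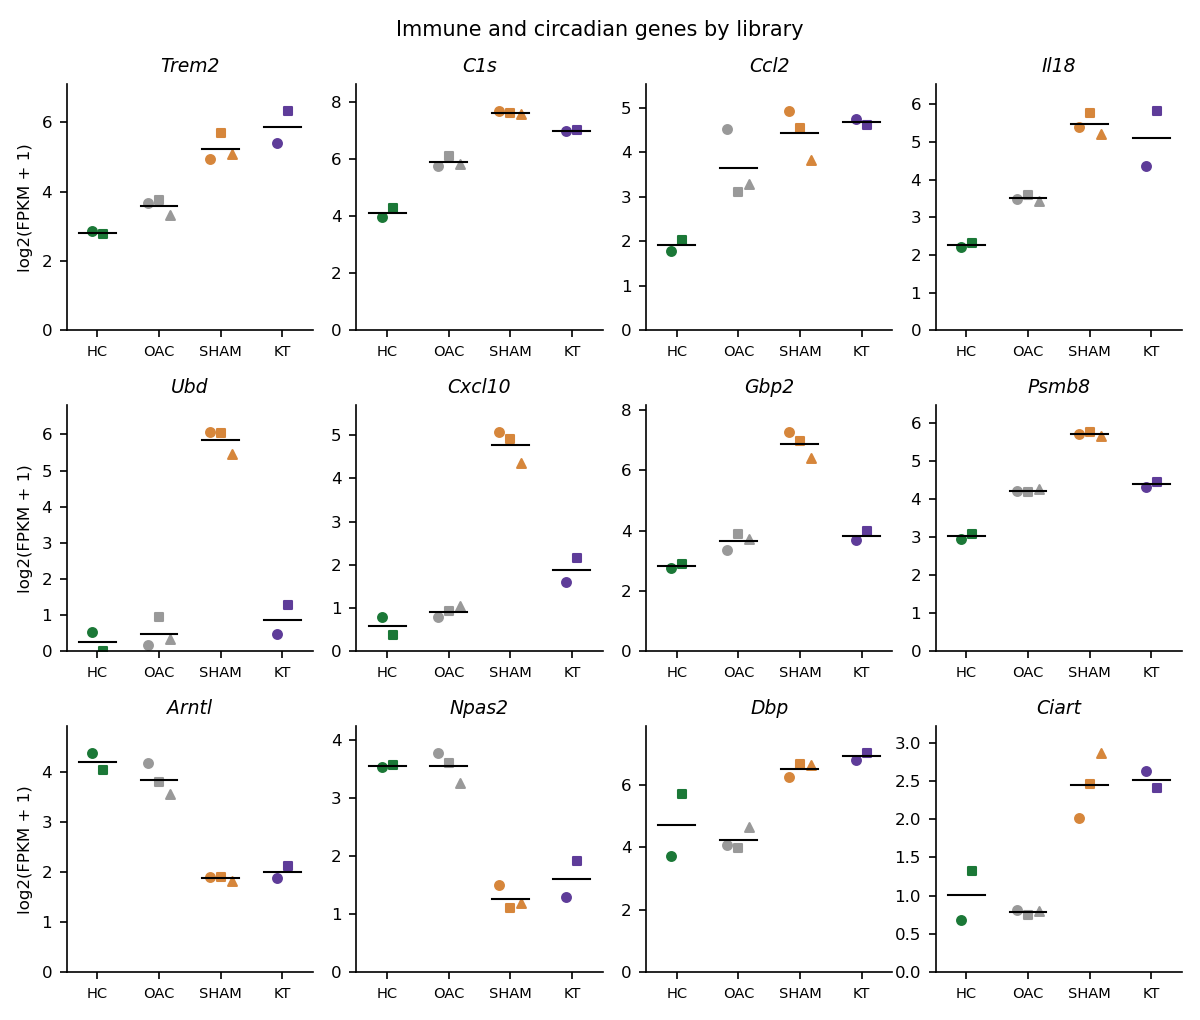
log2(FPKM + 1) of 8 immune and 4 circadian genes in each library of HC, OAC, SHAM and KT, with a point per library and a bar at the group mean. Ubd, Cxcl10 and Gbp2 are high in SHAM and low in KT, while Arntl and Npas2 are high in HC and OAC and low in SHAM and KT.

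Circadian genes differed from HC in a pattern that SHAM shared. In the molecular clock, ARNTL pairs with CLOCK or NPAS2 and drives genes through E-boxes, among them Dbp, Ciart and the nuclear receptors that act back on Arntl through ROR elements. Promoters of Arntl and Ciart are shown because they carry these elements and lie on the falling and the rising side. They are the 250 bases before the start in GRCr8, at chr1:176766078-176766327 on the plus strand for Arntl and chr2:186112247-186112496 on the minus strand for Ciart, with a RORE type motif (TAGGTCA, either strand) in capitals in Arntl and E-boxes (CACGTG) in capitals in Ciart.
Arntl: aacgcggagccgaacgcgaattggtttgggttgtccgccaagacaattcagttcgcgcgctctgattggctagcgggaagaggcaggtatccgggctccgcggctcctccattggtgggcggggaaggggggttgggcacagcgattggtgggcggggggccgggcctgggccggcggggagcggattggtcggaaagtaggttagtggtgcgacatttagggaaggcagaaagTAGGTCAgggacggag
Ciart: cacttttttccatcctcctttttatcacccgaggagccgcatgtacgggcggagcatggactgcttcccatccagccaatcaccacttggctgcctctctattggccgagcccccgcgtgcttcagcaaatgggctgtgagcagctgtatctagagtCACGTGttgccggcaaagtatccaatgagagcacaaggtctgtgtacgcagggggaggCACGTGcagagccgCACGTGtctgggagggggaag
The Arntl motif starts 16 bases before the start site, and the 3 E-boxes of Ciart start 93, 35 and 21 bases before it. An E-box was in 3 of 14 matched circadian promoters (21.4%), beside 6.65% of all promoters, and a RORE type motif in 1 of 14 (7.1%), beside 2.6%. Another motif searched, a D-box type (TTANNTAA, either strand), was in 1 of 14, beside 5.81%.

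Arntl (NM_024362, chromosome 1 from 178039063 to 178137471 in rn6) stood at 19.9 and 15.4 FPKM in HC, 10.9 to 17.2 in OAC, 2.56 to 2.77 in SHAM and 2.68 and 3.35 in KT. HC and OAC overlapped, SHAM and KT overlapped, and the pairs were far apart. KT was 5.84 times below HC (log2 difference -2.21 ± 0.20, limma adjusted p = 0.0011) and differed from SHAM by 0.12 (limma adjusted p = 0.81). Npas2 fell from 10.6 and 10.9 to 1.46 and 2.78 FPKM (5.08-fold, limma adjusted p = 0.0024). Dbp, a clock output factor, stood at 12.1 and 51.0 FPKM in HC, 14.8 to 24.0 in OAC, 74.6 to 101 in SHAM and 109.8 and 129 in KT. It rose 3.78-fold (limma adjusted p = 0.024), with HC replicate 1 at 0.238 of HC replicate 2, and lost the call without KT replicate 1 (0.077) or KT replicate 2 (0.097) and with quantile normalization (0.054). Ciart rose from 0.603 and 1.51 to 5.20 and 4.29 FPKM (limma adjusted p = 0.0092), lost without KT replicate 1 (0.052). Tef, another output factor, rose from 10.2 and 13.4 to 18.3 and 18.1 FPKM (limma adjusted p = 0.025), lost without HC replicate 1 (0.079), KT replicate 1 (0.089) or KT replicate 2 (0.082) and with quantile normalization (0.066), median-of-ratios scaling (0.054) and voom (0.058). Among 15 measured circadian genes, 3 rose, 3 fell and 9 were not called, beside 14.3% higher and 3.95% lower over all genes, and the higher count was 1 with quantile normalization, 5 without HC replicate 2, 0 without KT replicate 1 and 1 without KT replicate 2. The labels give no hour of day for the dissections.

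Counts of called blood and marrow cell markers changed with single libraries. Camp, an antimicrobial peptide of neutrophil granules, stood at 128 and 119 FPKM in HC, 492 and 217 in KT, 776 to 952 in OAC and 677 to 747 in SHAM, and rose 2.87-fold over HC (limma adjusted p = 0.020), a call lost without HC replicate 2 (0.052) and with quantile normalization (0.056). Of 21 measured neutrophil and marrow granule genes 4 rose, beside 14.3% over all genes, with 1 under quantile normalization, 14 without KT replicate 2, 1 without HC replicate 2, and 2 without KT replicate 1, OAC replicate 2 or 3 or any SHAM library. The list summed to 11952 FPKM in KT replicate 1 and 5276 in KT replicate 2, against 3840 and 2958 in HC. Of 20 erythroid genes 3 rose, beside 14.3% over all genes, a count of 10 without HC replicate 1, 0 without HC replicate 2, KT replicate 1 or KT replicate 2, and 1 without OAC replicate 2 or any SHAM library or under any of the 3 scalings. They summed to 32787 and 34537 FPKM in KT and 22534 and 21398 in HC. Cd4, a surface marker of T helper cells and of rat macrophages, rose from 14.1 and 14.7 to 44.4 and 36.9 FPKM (limma adjusted p = 0.0026), among 6 of 19 T cell and cytotoxic genes that rose (3 without KT replicate 2), beside 14.3% over all genes. Of 19 B cell and plasma cell genes 0 were called. The part of these cells in the other results was not tested.

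**Figure D5:**
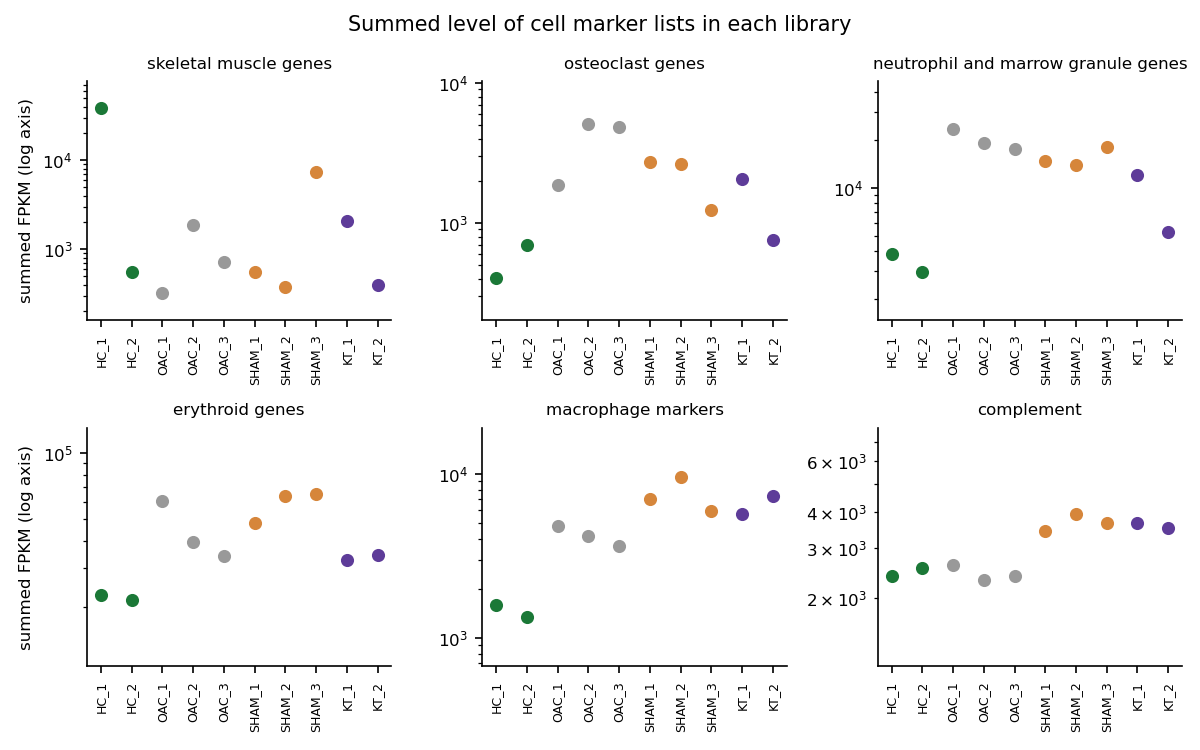
Summed FPKM (log axis) of 6 cell marker lists in each of the 10 libraries, with a point per library coloured by group. Muscle genes are highest in HC replicate 1, osteoclast and marrow granule genes are higher in KT replicate 1 than in KT replicate 2, and macrophage genes are higher in both KT libraries than in both HC libraries.

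Cell cycle inhibitors and cycle genes were among those higher in KT. Cdkn2a, the locus of p16 and p19ARF and a marker of senescent cells (NM_031550, chromosome 5 from 107823323 to 107832405), stood at 0.144 and 0.108 FPKM in HC, 0.125 to 0.633 in OAC, 0.535 to 0.925 in SHAM and 1.90 and 3.42 in KT. KT was above every other library, at 21.1 times HC (log2 difference 1.67 ± 0.24, limma adjusted p = 0.0038), on 6 and 4 reads in HC, and its difference from SHAM missed the threshold (limma adjusted p = 0.065). For Cdkn2a against SHAM the authors' deposited adjusted p is 0.023. Cdkn2b, the neighbouring inhibitor p15, rose from 0.832 and 0.814 to 2.83 and 2.29 FPKM (3.11-fold, limma adjusted p = 0.0059). It was also higher than SHAM by 0.89 (limma adjusted p = 0.028), a call lost without OAC replicate 3 (0.059), any SHAM library (0.099, 0.050 and 0.13), KT replicate 1 (0.089) or KT replicate 2 (0.10). Ccnd1, a cyclin of cell cycle entry, rose from 8.44 and 12.8 to 30.6 and 33.7 FPKM (3.04-fold, limma adjusted p = 0.0039). Of 18 measured cell cycle inhibitor and senescence genes 7 rose, 0 fell and 11 did not pass, beside 14.3% higher over all genes, and the count was 4 without OAC replicate 2, SHAM replicate 2 or KT replicate 1. Cdk1, the mitotic kinase, rose from 13.9 and 9.87 to 31.9 and 21.9 FPKM (limma adjusted p = 0.015, lost without KT replicate 1 at 0.080). Of 34 cell cycle genes 13 rose, beside 14.3% higher over all genes, a count that was 7 with voom, 20 without HC replicate 1, 3 without HC replicate 2, 5 without OAC replicate 2, 7 without SHAM replicate 2 and 1 without KT replicate 1.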

How the data were processed

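RNA of the blade-dissected joint surface was sequenced as stranded, paired-end mRNA libraries, per the labels' protocols. The authors deposited FPKM for 17419 RefSeq transcripts in 10 libraries. FastQC 0.11.2, STAR 2.5.3a, DESeq2 1.18.1, HOMER without a version and the build rn6 are named in the submitters' processing notes. Per the file headers, reads were counted over exons with HOMER, and the deposited comparison table gives log2 fold changes and adjusted p-values for other pairs of groups than KT and HC. Reads were recovered from the steps of the deposited FPKM: 100.0% of low values came out within 0.15 of a whole read, against 30% by chance.

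Limma 3.58.1 (R 4.3.3) with an intensity trend was fitted to log2(FPKM + 1) in all 10 libraries, with no term but group, over the 11282 genes whose mean reached 0.5 FPKM, giving 6 residual degrees of freedom. Tests were two-sided, adjusted by Benjamini-Hochberg over all genes, and called under 0.05. The code was checked on simulated data. No read fell on 2664 transcripts. The 47 gene lists (993 of 1080 entries were in the table), the members described, the tests and the alternatives were chosen with earlier results of these data known. Lists are described by counts and medians only.

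Genes were named by rule: in KT against HC the 12 largest called differences in each direction with a known symbol, at least 1 FPKM and libraries that do not overlap, up to 4 called members of each list, 26 chosen genes at any value, up to 8 per direction called the same way against HC and SHAM, and 2 abundant members of lists with no call. The rule gave 173 genes, of which part is described, and some are not reported here. Tap1, Tef and Lyve1 were named after their values were seen. Promoters were matched by RefSeq accession or symbol for 9173 of 11282 genes. Alternatives were another pseudocount (0.1), no filter, 3 scalings, array weights, fewer groups, a replicate block and leaving out each library.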

Additional observations from a re-analysis of the deposited data

How the results depend on the processing

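The count of genes called in KT against HC, 2057, was 493 with array weights, 10 with only the KT and HC libraries, 1116 with a replicate block, and 972 to 2205 when 1 library was left out, lowest without KT replicate 1. The call count in KT against SHAM, 118, was 73 with only the groups compared, 80 with the replicate block, and 45 to 122 when 1 library was left out: 45 without KT replicate 2, 49, 54 and 54 without SHAM replicates 1, 2 and 3, and 72 without OAC replicate 3. With a pseudocount of 0.1, no filter, quantile normalization, median-of-ratios scaling or voom, counts were 1569 to 2129 and 84 to 117. The members called higher than HC were 16 of 27 macrophage, 7 of 23 complement, 2 of 18 chemokine and 5 of 14 metalloproteinase genes with array weights, and 0, 2, 1 and 2 with only the KT and HC libraries. Of 113 genes followed across these settings, 95 were called against HC, and 62 of these calls held in every omission of a library while 33 were lost in at least 1. Of 20 calls against SHAM 9 held and 11 were lost in at least 1. With only the KT and HC libraries 85 of the 95 calls against HC were lost, and with array weights 36. Of the 20 calls against SHAM 10 were lost with no filter, 8 with array weights and 7 with only the groups compared. Signs turned only in genes that were not called: Prg4 (-0.00 with median-of-ratios scaling and with voom, -0.42 to 0.64 when 1 library was left out, lowest without HC replicate 1, and -0.11 without KT replicate 2), Comp (-0.03, quantile normalization), Sox9 (-0.10 without KT replicate 2 to 0.43), Acp5 (-0.09 without KT replicate 1 to 2.51) and Mylpf (-6.63 to 0.10 without HC replicate 1).

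Replicate numbers do not show that libraries were paired. Deviations of same-numbered KT and HC libraries correlated at 0.36 across genes with only 2 pairs, and those of KT and SHAM at -0.33 and 0.27, with KT replicate 1 closest to SHAM replicate 3 (0.45). With 2 libraries a group, the precision is limited by their number more than by depth.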

Other observations

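Metabolic genes held further differences between treated and healthy cartilage. Ch25h, which makes 25-hydroxycholesterol, rose from 0.423 and 0.669 FPKM in HC to 3.64 and 3.15 in KT (6.22-fold, limma adjusted p = 0.0020), with SHAM just below KT at 2.49 to 3.14. Idi1, an enzyme of sterol synthesis, rose from 3.40 and 2.96 to 7.66 and 6.95 FPKM (limma adjusted p = 0.0059). Srebf1, a regulator of fatty acid synthesis, fell from 20.2 and 22.0 to 9.28 and 7.43 FPKM (2.52-fold, limma adjusted p = 0.0093), a call lost without KT replicate 2 (0.051). Of 27 measured cholesterol genes 6 rose and 1 fell, beside 14.3 and 3.95% over all genes, with 3 higher without HC replicate 1 or KT replicate 1 and 0 lower without KT replicate 2. Cidea, a lipid droplet protein on the adipocyte list, fell from 11.0 and 14.5 to 3.68 and 5.76 FPKM (limma adjusted p = 0.0059). It was the only adipocyte gene called lower: of 14 measured, 3 rose, 1 fell and 10 did not pass, beside 14.3% higher and 3.95% lower over all genes. The higher count was 2 under each of the 3 scalings.

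Among glycolysis and hypoxia genes, Eno1 rose from 52.8 and 66.1 to 106 and 124 FPKM (limma adjusted p = 0.0045), and Car9, a carbonic anhydrase induced in low oxygen, from 9.24 and 13.5 to 26.4 and 31.9 FPKM (limma adjusted p = 0.013, lost without KT replicate 2 at 0.065). Pgam1 rose from 81.4 and 109.9 to 160.4 and 179 FPKM (limma adjusted p = 0.012), a call lost without KT replicate 2 (0.063) and with quantile normalization (0.068). Of 29 such genes 6 rose and 0 fell, beside 14.3% higher over all genes, with 1 without KT replicate 2 and 3 without KT replicate 1, OAC replicate 2 or OAC replicate 3, and 2 or 3 under the 3 scalings. Respiratory chain subunits were highest in HC replicate 1, the library with the most muscle RNA, whose part in these counts was not tested. Of 30 measured, 1 rose, Cox6a1, from 130.4 and 138 to 215 and 229 FPKM (limma adjusted p = 0.0062, or 0.060 with quantile normalization). Without HC replicate 1 the count was 22 higher and 0 lower, and without HC replicate 2 it was 1 higher and 25 lower. The list summed to 3234 FPKM in HC replicate 1 and 1350 in HC replicate 2, with 2136 and 2051 in KT. Among stress genes, Sdf2l1, an endoplasmic reticulum protein, rose from 9.29 and 6.06 to 16.5 and 14.8 FPKM (limma adjusted p = 0.0076). Of 25 unfolded protein response genes 6 rose, beside 14.3% higher over all genes, with 2 without HC replicate 1 or KT replicate 2 and 1 without KT replicate 1, and 1 or 2 under the 3 scalings. Myc rose from 3.85 and 3.94 to 8.45 and 7.24 FPKM (limma adjusted p = 0.0041).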
